A study of Mus musculus with 3 samples.

Results

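A set of 39 genes for collagens, other matrix proteins and the stromal cells that make them was followed in 3 splenic tumours, out of 22908 genes that could be named on the array. The members were fixed as a list of gene symbols, and each was found on the array through the RefSeq transcript that a probe is designed to. All 39 had at least 1 probe, 60 probes in all, and a gene was read from its brightest probe. Of the 39, 35 were well above background on at least 1 array and were tested among 15240 such genes. The other 4, Col5a2, Col15a1, Lum and Eln, were well above background on no array, so no fold is given for them.

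Total RNA from spleens of male mice was Cy3-labelled and hybridised to 1-colour Agilent mouse expression arrays, 1 array per tumour. The p53+/− genotype, in which 1 copy of the tumour suppressor gene Trp53 is lost, was represented by a single tumour, the p53 tumour below. The LSD1 × p53+/− genotype had 2, which the labels number 2 and 3 and which are called LSD1 tumour 2 and LSD1 tumour 3. All 3 mice therefore shared p53 haploinsufficiency, were 10 weeks old by the growth protocol and were untreated, and no spleen without a p53 lesion was compared. Kdm1a encodes LSD1, a histone demethylase. What the LSD1 element is goes unsaid in the labels, as does which promoter or cell type drives it, and whether the numbers 2 and 3 stand for mice or lines. The tissue is labelled a splenic tumour, but the growth protocol describes cells isolated from the spleen, and how far matrix-bound cells were recovered is not stated. The comparison the labels set up is between p53 haploinsufficiency with and without this element. By the scan headers, the p53 tumour and LSD1 tumour 3 were on slide 1 and LSD1 tumour 2 on slide 2. Differences of LSD1 tumour 2 from the p53 tumour therefore cannot be told apart from slide.

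The matrix of the spleen is laid down mostly by fibroblast-like reticular cells, by smooth muscle and pericytes of the capsule, trabeculae and vessels, and by endothelium. Fibrillar collagens form the tension-bearing fibres, collagen IV, laminins and nidogen form basement membranes under endothelium, and small leucine-rich proteoglycans such as decorin space the fibrils. Adhesive proteins such as fibronectin and matricellular proteins such as periostin link this scaffold to integrins, and most of these genes respond to transforming growth factor beta. In bulk RNA, fewer stromal cells and less RNA per stromal cell cannot be told apart.

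Relative to all genes the list had a median difference of -0.07 log2 units in LSD1 tumour 2 and -0.36 in LSD1 tumour 3. Of the 16 members beyond 2-fold, 14 were so in 1 LSD1 tumour or in opposite directions. The same held for most of the genes beyond 2-fold over the whole array. Of all genes tested, 60.6% were beyond it in neither tumour, 5.38% were lower in both and 3.48% higher in both. Insulin-like growth factor binding protein 5 (Igfbp5) and decorin (Dcn) were lower in both LSD1 tumours, and no member was 2-fold higher in both. Periostin, fibronectin, collagen I α1 and collagen VI α1 and α2 were more than 2-fold higher in LSD1 tumour 2. Fibronectin and periostin were lower by that much in LSD1 tumour 3. Collagen V α1 was 2-fold higher only in LSD1 tumour 3. By their brightest probes, Sparc, Igfbp7 and Col3a1 were 2-fold from the p53 tumour in neither, with differences between -0.15 and 0.09 log2 units.

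Levels below are processed signals divided by the array's 75th percentile, so a level of 1 is the 75th percentile of that array, and differences are log2 units against the p53 tumour. Where 3 values are given together, the p53 tumour comes first, LSD1 tumour 2 next and LSD1 tumour 3 last, and where 2 folds are, LSD1 tumour 2 comes first. Levels of different probes are not compared with each other. With limma, 0 of 15240 genes passed an adjusted p of 0.05 (percent called 0, 568 genes with an unadjusted p under 0.05), no member among them. The p-values measure only spread within these samples, and 3 arrays in 2 groups leave limma 1 residual degree of freedom. limma draws each gene's spread toward that of all genes, which gives 3.27 total degrees of freedom. An SE given below is thus not that gene's spread alone. Members are therefore described by size, with 2-fold as the mark and the brighter side well above background, beside the same share over all genes tested. A fold given as at least sets the brighter array's level against a floor, which is the dim array's lowest signal well above background or the dim probe's own, whichever is higher. Both LSD1 differences are taken from the same p53 array, so an unusual value there enters both.

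By this mark, 2 of the 35 members measured were lower in both LSD1 tumours (5.71%), beside 5.38% of all genes tested, and 0 were higher in both, beside 3.48%. In LSD1 tumour 2 the count was 7 higher (20.0%, beside 11.7% of all genes) and 3 lower (8.57%, beside 11.5%). In LSD1 tumour 3 it was 2 higher (5.71%, beside 15.2%) and 8 lower (22.9%, beside 11.5%). These counts moved with the scaling and the filter. The 8 became 4 with normexp, 6 with the filter on all 3 arrays or the mean over probes, and 11 in the authors' value table. The 7 became 5 with normexp or in the authors' value table, and 6 with that filter or the mean over probes. The 3 ranged from 2 to 5 and the 2 from 1 to 2. Shares of all genes in a single tumour were not retaken under these settings. The whole array moved too: genes lower in both numbered 820 in the main setting, 394 with normexp and 1266 in the authors' value table. Genes higher in both numbered 531, 323 and 219. A total of 19 members was 2-fold from the p53 tumour in neither LSD1 tumour, 54.3% beside 60.6% of all genes. By sign alone, 15 were lower in both (42.9%, beside 27.8%) and 7 higher in both (20.0%, beside 38.9%). The median difference of the members was -0.02 in LSD1 tumour 2 and -0.20 in LSD1 tumour 3, where all genes had 0.05 and 0.16. Without the 3 members that were below background on 1 or 2 arrays the medians were -0.00 and -0.11, beside 0.05 and 0.19 for all genes above background on all 3 arrays.

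**Figure D1:**
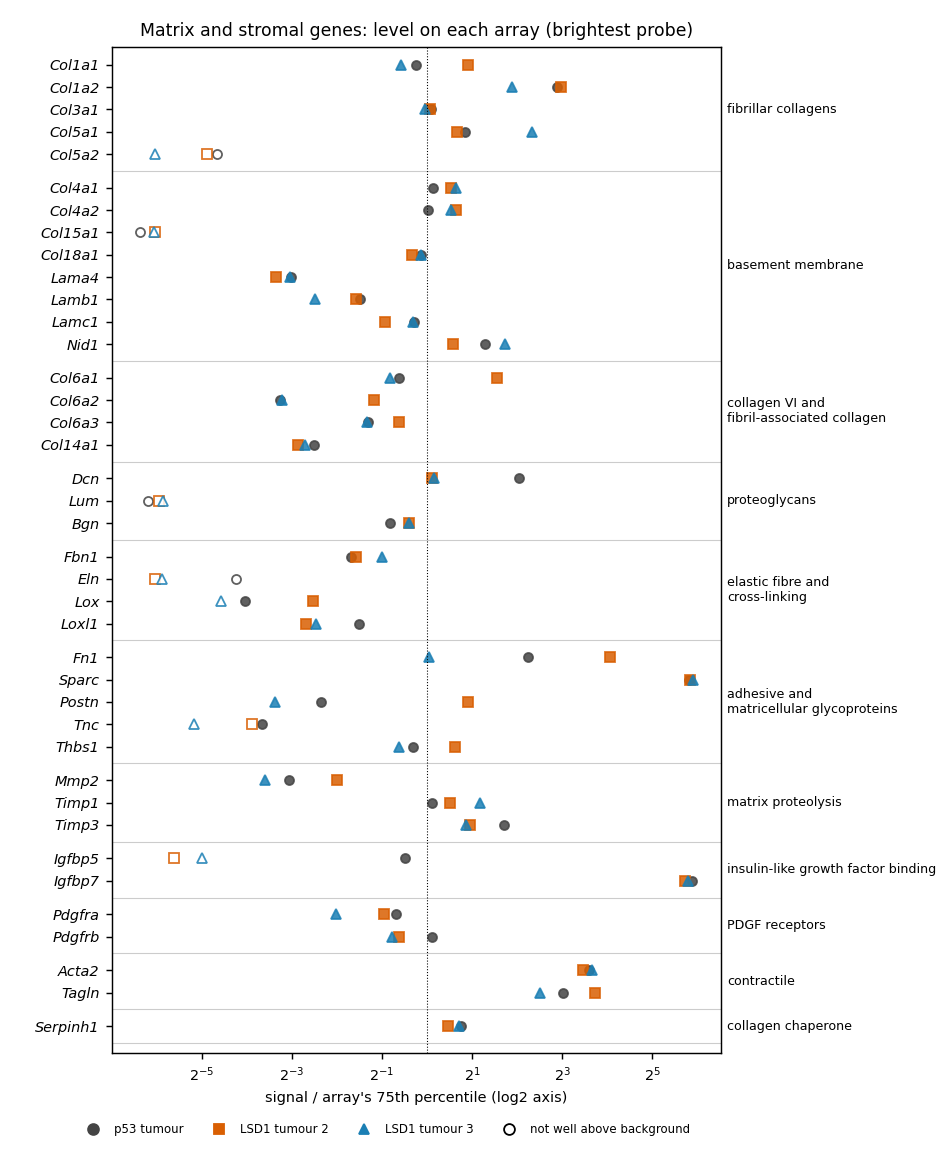
Level of each of the 39 genes on each array, as signal over the array's 75th percentile on a log2 axis, for the p53 tumour (circles), LSD1 tumour 2 (squares) and LSD1 tumour 3 (triangles), with 1 array each and open symbols for spots not well above background. Sparc and Igfbp7 overlap on all 3 arrays, Igfbp5 is measured in the p53 tumour alone, and Postn and Fn1 are highest in LSD1 tumour 2.

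The start regions of 3 members with large differences, and of a pair of fibrillar collagen genes that differed in opposite directions in LSD1 tumour 3, are shown with short motifs in capitals. They are the 250 bases before the transcription start from RefSeq, build GRCm38.p6, 5′ to 3′ in the direction of the gene, and for Postn, which has 2 starts in that table, the start further along the gene is used.

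Igfbp5, chr1:72874866-72875115, minus strand: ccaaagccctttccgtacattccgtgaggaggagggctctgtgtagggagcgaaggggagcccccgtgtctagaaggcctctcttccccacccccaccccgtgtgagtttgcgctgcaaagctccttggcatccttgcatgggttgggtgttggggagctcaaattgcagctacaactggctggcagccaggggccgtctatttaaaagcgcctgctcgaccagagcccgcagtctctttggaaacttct
Postn, chr3:54360857-54361106, plus strand: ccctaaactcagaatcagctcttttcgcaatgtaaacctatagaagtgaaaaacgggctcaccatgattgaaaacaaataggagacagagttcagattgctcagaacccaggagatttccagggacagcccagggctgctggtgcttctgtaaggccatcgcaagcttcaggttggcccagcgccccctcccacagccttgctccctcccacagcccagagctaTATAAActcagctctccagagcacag
Col6a1, chr10:76726045-76726294, minus strand: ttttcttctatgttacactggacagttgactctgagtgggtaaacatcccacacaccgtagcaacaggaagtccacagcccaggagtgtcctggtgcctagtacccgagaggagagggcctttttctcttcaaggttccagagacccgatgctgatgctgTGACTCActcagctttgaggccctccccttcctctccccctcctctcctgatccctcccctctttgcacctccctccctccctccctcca
Col1a2, chr6:4505368-4505617, plus strand: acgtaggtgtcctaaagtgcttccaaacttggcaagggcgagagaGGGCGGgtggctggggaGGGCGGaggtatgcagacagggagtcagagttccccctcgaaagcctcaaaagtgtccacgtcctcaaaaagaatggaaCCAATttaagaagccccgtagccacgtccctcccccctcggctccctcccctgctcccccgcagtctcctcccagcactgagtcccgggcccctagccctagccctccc
Col5a1, chr2:27886175-27886424, plus strand: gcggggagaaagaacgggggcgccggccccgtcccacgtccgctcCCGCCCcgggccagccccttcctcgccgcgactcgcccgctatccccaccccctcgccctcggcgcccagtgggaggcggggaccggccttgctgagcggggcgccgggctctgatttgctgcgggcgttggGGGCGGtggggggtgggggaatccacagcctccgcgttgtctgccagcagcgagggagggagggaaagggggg

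Capitals mark TATAAA (the TATA box letters), GGGCGG (a GC box), TGANTCA (the AP-1 letters) or CCAAT on either strand, and no 2 marked stretches overlap. Postn has TATAAA starting 26 bases before the start, and 12.4% of all 32851 such regions hold it. Col6a1 has TGACTCA 90 bases before its start, the only member match of TGANTCA, which 6.75% of all regions hold. Col1a2 has GGGCGG at 205 and 188 bases and CCAAT at 109 bases before the start, while Col5a1 has GGGCGG letters at 205 and 73 bases. GGGCGG was found in 16 of 28 regions of the 24 members in the table (32.7% of all regions), TATAAA in 4 and CCAAT in 7 (33.8% of all). The CArG box of serum response factor was searched too and matched in 0 of the 28, beside 1.47% of all. The region of Igfbp5 held none of the 5 motifs searched. A match is only a run of letters, and the arrays carry no measurement at these starts.

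The fibrillar collagens did not move as a set. Col1a1, encoding the α1 chain of collagen I, had levels of 0.848 in the p53 tumour against 1.88 in LSD1 tumour 2 and 0.672 in LSD1 tumour 3. These are a 2.22-fold higher and a 1.26-fold lower level, and the second probe gave 2.48-fold and 1.18-fold in the same directions. Col1a2, the partner α2 chain, had 7.41, 7.93 and 3.69, 1.07-fold higher in LSD1 tumour 2 (lower under quantile normalization, and in the table of authors' values) and 2.01-fold lower in LSD1 tumour 3. Both chains of collagen I were thus more than 2-fold higher in LSD1 tumour 2 than in LSD1 tumour 3.

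Col5a1, a chain of the collagen V that nucleates collagen I fibrils, was ordered the other way. Its levels were 1.79 in the p53 tumour against 1.60 in LSD1 tumour 2 and 5.04 in LSD1 tumour 3 (1.12-fold lower and 2.82-fold higher). Col3a1, the collagen of reticular fibres in spleen, had 1.06, 1.05 and 0.965, differences of -0.02 and -0.14 log2 units. Col5a2 was not above background on any array. Serpinh1, the chaperone HSP47 that folds procollagen, was 1.21-fold and 1.03-fold lower, the latter with the opposite sign under normexp.

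Collagen VI, the beaded-filament collagen that anchors cells to the matrix, was higher in LSD1 tumour 2. Col6a1 had levels of 0.653 in the p53 tumour against 2.94 in LSD1 tumour 2 and 0.568 in LSD1 tumour 3, and Col6a2 had 0.104, 0.441 and 0.108. They were 4.50-fold and 4.24-fold higher in LSD1 tumour 2, and differed by -0.20 and 0.05 log2 units in LSD1 tumour 3 (Col6a2 with the opposite sign in the authors' value table). The third chain gene, Col6a3, had 0.402, 0.646 and 0.396, 1.61-fold higher in LSD1 tumour 2. For all 3 chains the p53 tumour and LSD1 tumour 3 lay close together and LSD1 tumour 2 stood above them. Col14a1, a collagen on the surface of collagen I fibrils, was 1.29-fold and 1.15-fold lower.

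Of 8 basement membrane genes 7 were measured, and 6 of them were 2-fold from the p53 tumour in neither LSD1 tumour, beside 60.6% of all genes. Col4a1 and Col4a2, which encode the chains of the common collagen IV trimer and lie head to head in the genome, were higher in both. Col4a1 had 1.10, 1.45 and 1.58 (1.32-fold and 1.43-fold), and Col4a2 had 1.02, 1.57 and 1.46 (1.54-fold and 1.43-fold). Col18a1, the source of endostatin, had 0.914, 0.791 and 0.913. The laminin α4 gene of vessel walls, Lama4, had 0.124, 0.0985 and 0.122.

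Lamb1, encoding laminin β1, was lower in LSD1 tumour 3 by 2.02-fold, from 0.359 in the p53 tumour to 0.178, and by 1.07-fold in LSD1 tumour 2 (higher by the mean of its probes). Its second probe put LSD1 tumour 2 at 1.47-fold above the p53 tumour and LSD1 tumour 3 at least 1.40-fold below it. Lamc1, laminin γ1, was 1.56-fold lower in LSD1 tumour 2 and differed by -0.02 log2 units in LSD1 tumour 3, where the sign turned with quantile normalization. Its second probe, above background only for p53+/−, was at least 1.38-fold and at least 1.39-fold lower. Nid1, the nidogen that joins laminin to collagen IV, had 2.45, 1.49 and 3.32, 1.64-fold lower and 1.36-fold higher, a 2.23-fold gap between the LSD1 tumours. The other Nid1 probe was above background only on the p53 array and gives no fold, with values lower in both.

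Dcn, the small proteoglycan that binds collagen fibrils and transforming growth factor beta, was measured on all 3 arrays. Its level was 4.14 in the p53 tumour against 1.08 in LSD1 tumour 2 and 1.11 in LSD1 tumour 3, so the LSD1 tumours nearly coincided and lay below the p53 tumour. It was 3.82-fold and 3.73-fold lower (limma, -1.92 ± 0.48 SE, adjusted p = 0.967). Of the other proteoglycans, Bgn, encoding biglycan, went the other way, at 0.568 in the p53 tumour against 0.755 and 0.759 (1.33-fold and 1.34-fold higher). Lum, encoding lumican, was not well above background on any array.

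Among elastic fibre and cross-linking genes, Loxl1 was lower in both tumours and Lox higher in 1. Loxl1, a lysyl oxidase needed to build elastic fibres, had levels of 0.350, 0.155 and 0.182 (2.25-fold and 1.92-fold lower). The authors' value table scales both LSD1 arrays lower, and there Loxl1 passed 2-fold in both as well and made the count of members lower in both 3. Fbn1, encoding the microfibril protein fibrillin 1, was 1.07-fold and 1.61-fold higher (in LSD1 tumour 2 lower in the authors' value table), and its second probe 2.37-fold and 2.48-fold higher, so that this gene would pass the mark in both tumours by its second probe only. Lox, the lysyl oxidase that cross-links collagen and elastin, had 0.0603 in the p53 tumour and 0.174 in LSD1 tumour 2, 2.88-fold higher, and was not well above background in LSD1 tumour 3. Eln, encoding elastin, was above background on no array.

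Of the 5 adhesive and matricellular genes, Postn, Fn1 and Thbs1 were highest in LSD1 tumour 2 and lowest in LSD1 tumour 3. Postn, encoding periostin, a secreted protein of activated fibroblasts that binds integrins and collagen I, had a level of 0.197 in the p53 tumour against 1.89 in LSD1 tumour 2 and 0.0964 in LSD1 tumour 3. Against the p53 tumour this was 9.62-fold higher and 2.04-fold lower, a 19.6-fold gap within the LSD1 genotype (limma mean difference 1.12 ± 2.11 SE, adjusted p = 0.981). Its other probes gave 12.6-fold and at least 12.3-fold higher in LSD1 tumour 2. In LSD1 tumour 3 they gave at least 2.74-fold lower and, for the probe that was above background in LSD1 tumour 2 alone, no fold.

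Fn1, encoding fibronectin, the adhesive protein of plasma and matrix, showed the same order. Its level was 4.77 in the p53 tumour against 16.8 in LSD1 tumour 2 and 1.03 in LSD1 tumour 3, 3.52-fold above and 4.64-fold below the p53 tumour. Its other probes gave 2.98-fold and 2.84-fold higher in LSD1 tumour 2, and levels lower by at least 3.76-fold and at least 1.15-fold in LSD1 tumour 3. All 3 probes therefore placed LSD1 tumour 2 highest and LSD1 tumour 3 lowest. Macrophages also make fibronectin, and their 8 markers had a summed level of 169 in the p53 tumour against 138 in LSD1 tumour 2 and 175 in LSD1 tumour 3, with all 8 above background on each array. Their part in the Fn1 values was not tested.

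Thbs1, encoding thrombospondin 1, an activator of latent transforming growth factor beta, had levels of 0.811, 1.55 and 0.647 (1.91-fold higher and 1.25-fold lower). Its second probe gave 1.24-fold higher and 2.08-fold lower, so the order of the 3 tumours was kept while the mark was passed in LSD1 tumour 3. Platelets carry thrombospondin 1 too. The 8 megakaryocyte and platelet markers had their lowest summed level, 23.1, in LSD1 tumour 2 and their highest, 31.5, in LSD1 tumour 3. The p53 tumour lay between, at 27.8, so these markers did not rank the tumours as Thbs1 did. The part of platelets in the Thbs1 values was not tested. Tnc, encoding tenascin C, had a level above background only in the p53 tumour (0.0794) and was at least 1.15-fold lower in LSD1 tumour 2 (higher with normexp) and lower by at least 1.16-fold in LSD1 tumour 3. It counts among the 8 lower there only by its value at background level.

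Sparc, encoding osteonectin, a collagen-binding glycoprotein of fibroblasts and endothelium, stood at 56.5, 57.1 and 60.2. It differed by 0.02 and 0.09 log2 units, and its second probe by -0.21 and 0.19. Its sign was not stable: in LSD1 tumour 2 it turned with normexp, quantile normalization, the authors' value table and the mean over probes, and in LSD1 tumour 3 under quantile scaling and that table. Igfbp7, a marker of vascular and stromal cells, stood at 59.6, 53.5 and 56.0 (1.11-fold and 1.06-fold lower).

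**Figure D2:**
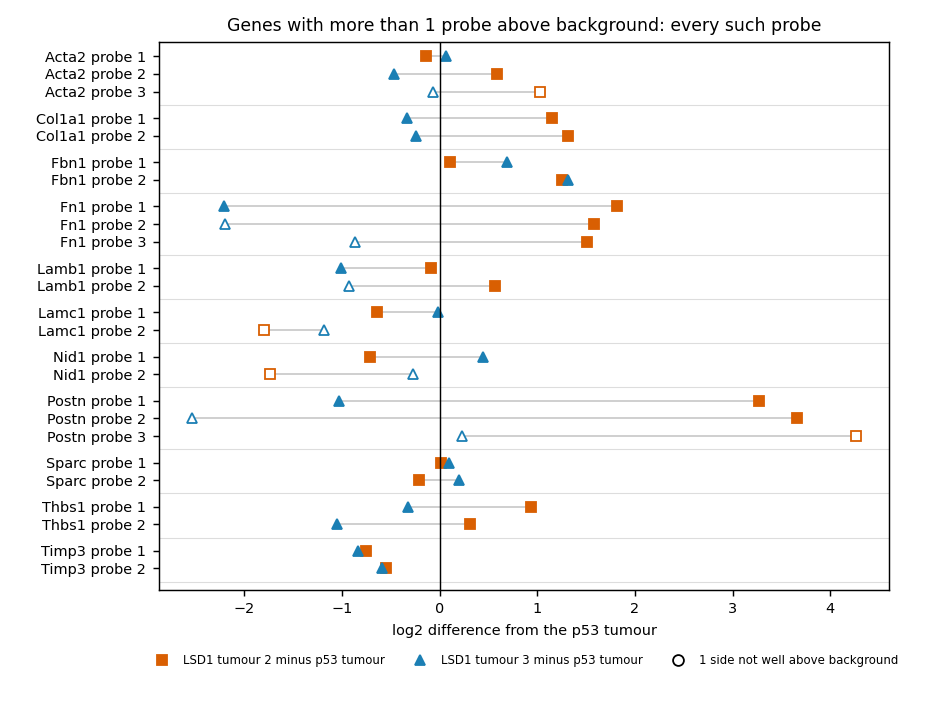
Log2 difference from the p53 tumour for each probe above background on at least 1 array, in the 11 genes that have more than 1, with LSD1 tumour 2 as squares, LSD1 tumour 3 as triangles and open symbols where 1 side was not well above background. The 3 Fn1 probes and the 3 Postn probes all put LSD1 tumour 2 to the right, while Acta2 probes fall on both sides of 0.

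Among genes of matrix proteolysis, Mmp2, the gelatinase A of fibroblasts, had 0.119, 0.25 and 0.0828 (2.09-fold higher and 1.44-fold lower). Timp1, a secreted metalloproteinase inhibitor, had 1.08, 1.42 and 2.27, 1.31-fold and 2.09-fold higher. Timp3, the metalloproteinase inhibitor that is held in the matrix, had 3.28, 1.95 and 1.83 (1.68-fold and 1.79-fold lower), and its second probe gave -0.55 and -0.60 log2.

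Igfbp5, which encodes a secreted binder of insulin-like growth factors made by fibroblasts and smooth muscle, had a level of 0.710 in the p53 tumour and was not well above background in LSD1 tumour 2 (0.0203) or LSD1 tumour 3 (0.0315). It was at least 10.3-fold and at least 10.4-fold lower (limma, adjusted p = 0.967, from LSD1 readings at background level). These bounds hold for this scaling. With normexp background correction, the values were -2.48 and -2.30 log2. Igfbp5 has 1 probe, and the p53 array alone measured it.

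Of the receptors for platelet-derived growth factor, Pdgfra, the form of many fibroblasts, differed mainly in LSD1 tumour 3. Its levels were 0.619 in the p53 tumour against 0.520 in LSD1 tumour 2 and 0.246 in LSD1 tumour 3, 1.19-fold and 2.51-fold lower. Pdgfrb, the form of pericytes and reticular fibroblasts, had 1.08, 0.654 and 0.582 (1.65-fold and 1.86-fold lower). For Loxl1, Timp3 and Pdgfrb the LSD1 tumours lay closer to each other than either did to the p53 tumour, and limma gave an adjusted p of 0.967 for each.

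Neither contractile gene was 2-fold from the p53 tumour. Acta2, encoding smooth muscle actin, had 12.1, 11 and 12.7, but its second probe differed by 0.58 and -0.47 log2 units, and its directions turned between settings. Tagln, encoding the actin-binding protein SM22, had 8.08, 13.2 and 5.68 (1.64-fold higher and 1.42-fold lower), the order seen for Col1a1.

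**Figure D3:**
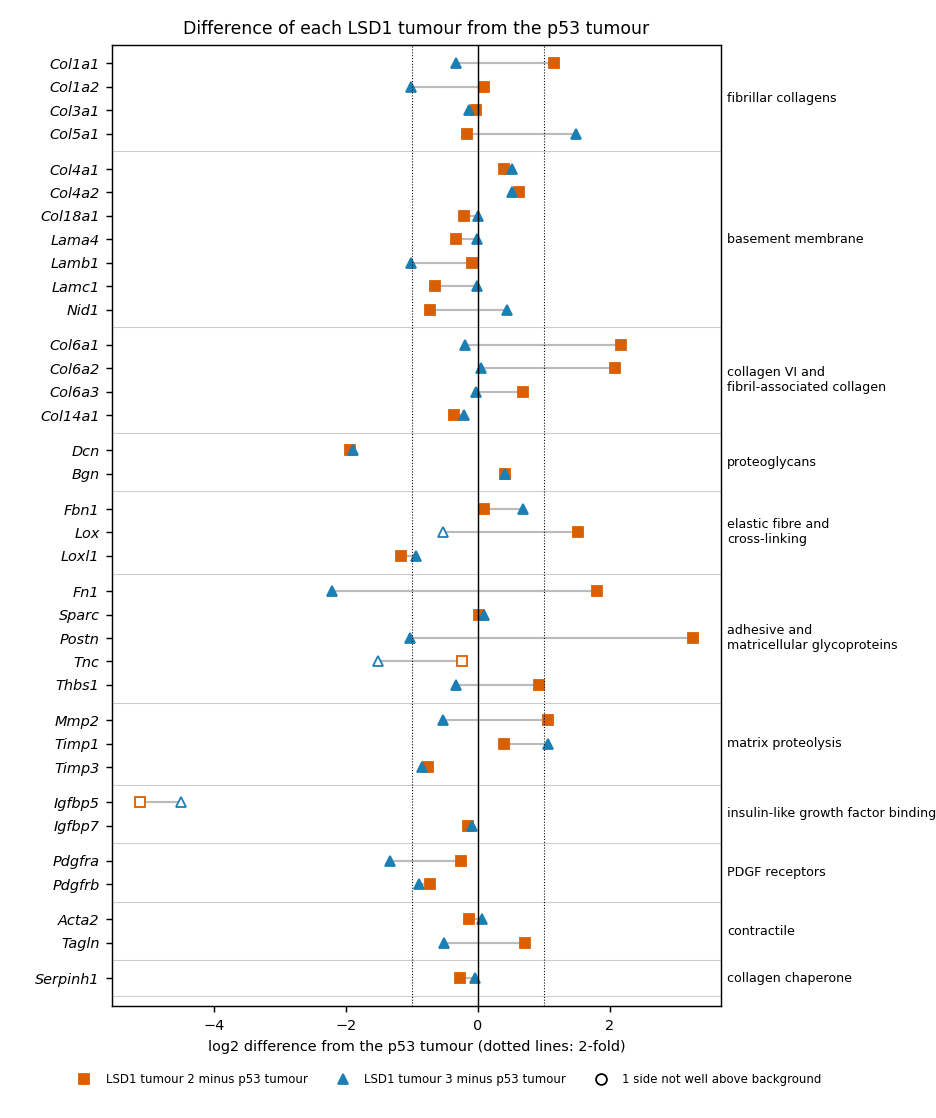
Log2 difference of LSD1 tumour 2 (squares) and LSD1 tumour 3 (triangles) from the p53 tumour for the 35 genes measured, in their groups, with dotted lines at 2-fold and open symbols where 1 side was not well above background. Igfbp5 and Dcn lie beyond 2-fold to the left in both tumours, Fn1 and Postn lie on opposite sides, and no gene lies beyond 2-fold to the right in both.

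Several of these calls sit close to the mark. Just inside it were Col1a2, Lamb1 and Postn in LSD1 tumour 3 (-1.01, -1.02 and -1.03 log2) and Mmp2 in LSD1 tumour 2 and Timp1 in LSD1 tumour 3 (1.07 and 1.06), and just outside it Loxl1 in LSD1 tumour 3 (-0.94) and Thbs1 in LSD1 tumour 2 (0.93).

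Between the LSD1 tumours, 13 members were at least 2-fold apart, and 11 of these were higher in LSD1 tumour 2. That is 31.4% of the members measured, beside 11.1% of all genes tested, while 2 (Col5a1 and Nid1) were higher in LSD1 tumour 3 (5.71%, beside 14%). The 11 were Col1a1, Col1a2, Col6a1, Col6a2, Lox, Fn1, Postn, Thbs1, Mmp2, Pdgfra and Tagln. They include the contractile Tagln, both collagen I chains and the fibroblast receptor Pdgfra, for which LSD1 tumour 3 was the lowest of the 3. Under the other settings LSD1 tumour 2 was higher in 7 to 12 members and LSD1 tumour 3 in 2. The counts over all genes moved too. LSD1 tumour 2 was higher in 1692 genes in the main setting, 956 with normexp (7 members) and 2054 in the authors' value table (12 members). LSD1 tumour 3 was higher in 2140, 1540 and 1788 genes in the same settings. These tumours were also on different slides, LSD1 tumour 2 on slide 2 and the others on slide 1, so tumour and slide cannot be told apart here. On slide 1 alone, which held both genotypes, the comparison is that of LSD1 tumour 3 with the p53 tumour. There 8 members were lower (22.9%, beside 11.5% of all genes) and 2 higher (5.71%, beside 15.2%).

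The tissue label was checked on listed markers. Tlx1 and Nkx2-5, transcription factors of splenic mesenchyme, were well above background on all 3 arrays, with levels between 0.266 and 0.487 and between 0.154 and 0.287. All 6 leukocyte genes were too, with summed levels of 150, 132 and 73.1. Markers of neighbouring tissue differed between the tumours. Of 5 fat markers 2, 3 and 2 were above background, with summed levels of 0.941, 4.62 and 1.76. Adipoq, encoding adiponectin, was above background in LSD1 tumour 2 alone, at least 5.94-fold higher, while Plin1 and Cidec were above background on no array. Of 6 exocrine pancreas markers, 3, 3 and 6 were above background, with summed levels of 10.0, 11.9 and 23.4. Fat is a tissue rich in collagen VI, and the part of these markers in the values of LSD1 tumour 2 was not tested.

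Of 4 markers of the capsule's mesothelium measured, 2 passed the 2-fold mark downwards in both LSD1 tumours, beside 5.38% of all genes. In LSD1 tumour 3, 1 was 2-fold higher, beside 15.2% of all genes. Only 1 of the 4 was above background on all 3 arrays. Msln, encoding mesothelin, had a level of 0.659 in the p53 tumour and was not above background in the LSD1 tumours, at least 9.55-fold and at least 9.63-fold lower. Of the 6 markers, 4, 1 and 2 were above background, with summed levels of 1.18, 0.239 and 1.26, the last carried by Krt18. Their part in the lower values of Igfbp5 and Dcn was not tested.

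Other cells that make matrix were followed by their own markers. Lymphoid stroma, the reticular and follicular dendritic cells that organise white pulp, had medians of -1.89 and -3.48 relative to all genes, and 4 of 9 genes were 2-fold lower in both, beside 5.38% of all genes. By sign, 8 of the 9 were lower in both, beside 27.8% of all genes. The exception was Tnfsf11, the cytokine RANKL, named after its values were seen, at 0.0748 in the p53 tumour, 1.67 in LSD1 tumour 2 (22.3-fold higher) and not above background in LSD1 tumour 3. Ccl21a, the chemokine of T cell zone stroma, was 6.19-fold and 23.8-fold lower and Cxcl13, the chemokine of follicles, 14.3-fold and 19.2-fold lower. Of 12 endothelial genes 8 were lower in both by sign and 0 by 2-fold in both, beside 27.8% and 5.38% of all genes. Their relative medians were -0.55 and -0.48, and Kdr, a receptor for vascular endothelial growth factor, was 2.56-fold and 1.49-fold lower. Of 6 splenic mesenchyme transcription factors 5 were lower in both by sign and 0 by 2-fold in both, beside the same shares. Their relative medians were -0.92 and -0.95.

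Mural cell markers split. The pericyte regulator Rgs5 was above background in LSD1 tumour 2 alone and at least 14.9-fold higher there. The medians of the 6 pericyte genes relative to all genes were, however, -0.45 and -0.72. Of 8 smooth muscle genes measured 1, Synpo2, was 2-fold lower in both (2.70-fold and 3.10-fold), beside 5.38% of all genes. Cnn1, encoding calponin, was 1.09-fold higher in LSD1 tumour 2 (lower in the authors' value table and by the mean of its probes) and lower by at least 2.90-fold in LSD1 tumour 3, where Myh11, smooth muscle myosin, was 2.19-fold lower. The part of any of these cells in the members' values was not tested.

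**Figure D4:**
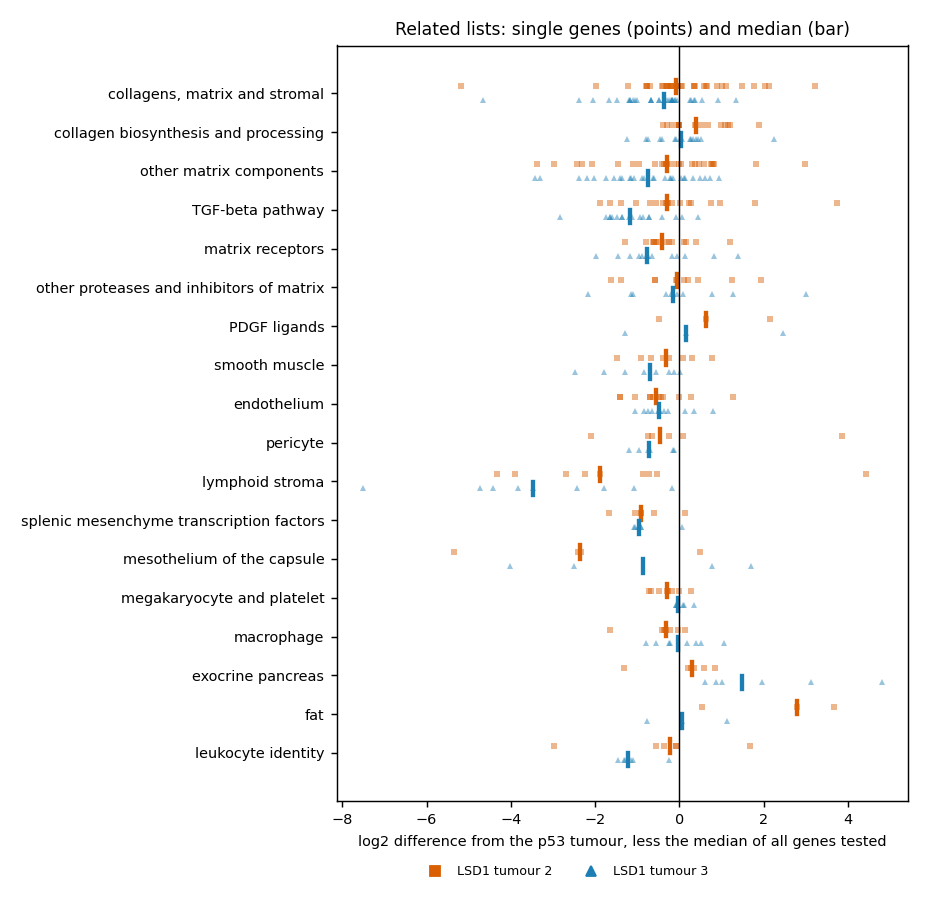
Log2 difference from the p53 tumour less the median of all genes tested, for single genes (points) and the list median (bars) in LSD1 tumour 2 (squares) and LSD1 tumour 3 (triangles), over the 35 matrix and stromal genes measured and related lists. Lymphoid stroma lies far to the left (medians -1.89 and -3.48), and the 35 genes have medians of -0.07 and -0.36.

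The machinery around these members was taken from further fixed lists, in which limma called 0 genes at an adjusted p of 0.05. Of 16 genes of collagen biosynthesis measured, 5 were 2-fold higher in LSD1 tumour 2 (31.2%, beside 11.7% of all genes) and 1 in both (6.25%, beside 3.48%). That gene, P4ha3, a prolyl 4-hydroxylase subunit, was at least 2.55-fold and at least 3.55-fold higher. P4hb, the other subunit of that enzyme and a general folding enzyme, was 2.04-fold and 1.59-fold higher, and P3h1, a prolyl 3-hydroxylase of collagen, 2.20-fold and 1.40-fold. The list's medians relative to all genes were 0.39 and 0.03, beside -0.07 and -0.36 for the collagens and matrix genes themselves.

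Of 28 other matrix genes measured, 6 were 2-fold lower in both tumours (21.4%, beside 5.38% of all genes) and 0 higher (beside 3.48%), with relative medians of -0.29 and -0.74. Mgp, the inhibitor of calcification in vessels and cartilage, was 10.1-fold and 3.66-fold lower. Ogn, encoding the small proteoglycan osteoglycin, was at least 3.53-fold and at least 3.56-fold lower, and Mfap5, a microfibril protein, at least 2.13-fold and at least 2.15-fold lower.

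In the transforming growth factor beta pathway, 2 of 18 genes were 2-fold lower in both tumours and 0 higher in both, beside 5.38% and 3.48% of all genes. In LSD1 tumour 2, 3 were 2-fold lower and 3 higher, and in LSD1 tumour 3, 9 were lower and 0 higher. Over all genes, 11.5% were lower in each tumour, and 11.7% and 15.2% were higher. The relative medians were -0.28 and -1.16. Tgfb2, a ligand, had 0.0595, 0.824 and 0.0895, 13.8-fold higher in LSD1 tumour 2. Smad7, an inhibitor that the pathway itself induces, was 3.56-fold and 3.01-fold lower, and Ltbp4, which stores latent ligand in the matrix, 3.01-fold and 2.31-fold lower.

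For the ligands of the PDGF receptors, 1 of 3 measured was 2-fold higher in both, beside 3.48% of all genes. Pdgfc, a ligand of the receptor encoded by Pdgfra, had 0.214, 0.976 and 1.31, 4.56-fold and 6.13-fold higher, whereas Pdgfa was 1.35-fold and 2.21-fold lower. Of 14 receptors for matrix, 0 were 2-fold lower in both tumours and 0 higher in both, beside 5.38% and 3.48% of all genes. Itgb5, an integrin subunit, was 2.35-fold and 1.73-fold lower, and Ddr1, a collagen receptor kinase, 1.12-fold higher in LSD1 tumour 2 (lower in the authors' value table) and 3.53-fold lower in LSD1 tumour 3. Of 11 other proteases and inhibitors measured, 1 was 2-fold lower in both, Mmp11, at 2.97-fold and 3.99-fold, beside 5.38% of all genes.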

How the data were processed

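RNA of 3 splenic tumours was measured on 1 array each. Per the file headers, the authors' scans were extracted with Agilent Feature Extraction 11.5.1.1 into processed signals, a linear intensity, background-subtracted and detrended within the array and not scaled between arrays, with 0 or 1 flags per spot. The array's build is mm9. The authors' value table holds the same intensity times 1 factor per array (1.06, 0.779 and 0.902), whose basis is not given in the sources used here, with column medians of 64.2, 54.2 and 43.5. Between 51.5% and 55.6% of spots were well above background, and no spot was saturated. The number of arrays limits the precision.

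Signals were divided by each array's 75th percentile over non-control spots and converted to log2. Spots with an outlier flag were dropped, and repeated spots averaged. RefSeq accessions of assembly GRCm38.p6 named 32994 of 56605 probes, since the scanner files hold no symbols. A gene was read from the probe with the highest mean. The 15240 genes that at least 1 array measured well above background were tested with limma 3.58.1 in R 4.3.3 (lmFit, eBayes, Benjamini-Hochberg over all of them). On simulated data with 1 spread for all genes, only the mean estimate of planted changes was checked, not the power to call them. The p53 group's spread is taken from the LSD1 tumours. Scan files lack the mean spot signal, so normexp used the median. Members and lists were chosen with earlier results of these data known. Every member is described, and of each other list up to 3 genes with the largest mean difference were eligible to be named, with Tlx1, Tnfsf11, Plin1, Cidec and Krt18 added after their values were seen.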

Additional observations from a re-analysis of the deposited data

How the results depend on the processing

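Each count and median was recomputed with normexp, quantile normalization, the median of detected probes as scale and the authors' value table. The same was done with no filter on dim probes, a filter on all 3 arrays and the mean over probes. For slide as a block and without each LSD1 tumour, only the counts lower in both and higher in both were retaken. They were read from the calls of the LSD1 tumour that was left. limma called 0 genes under each setting that left a test, with 558 to 1756 unadjusted p-values under 0.05 and a lowest adjusted p between 0.290 and 0.975. With slide as a block, or without 1 LSD1 tumour, no residual degree of freedom is left and limma gives no test. The count of members lower in both was 1 with the filter on all 3 arrays, which removes Igfbp5, and 8 with slide as a block, where LSD1 tumour 3 alone decides it. Without 1 LSD1 tumour that count ranged from 3 to 8, and the count higher in both, 0 otherwise, from 2 to 7 (2 with slide as a block). Setting values below background to their bound, an alternative chosen after seeing the data, gave 2, 0 and 13 for lower in both, higher in both and apart. The members' median relative to all genes in LSD1 tumour 2 turned to 0.05 with the mean over probes, against -0.07. None of the 484 recomputed member differences turned a 2-fold difference around, and 69 moved by at least the SD between the LSD1 tumours. The 484 include the settings that change only the filter, which leave a gene's values as they were. Only differences already 2-fold in the main setting could count as turned, so most of the 484 could not. Among all genes called 2-fold higher in both or 2-fold lower in both, 39.3% were higher, and 14.7% in the authors' value table, whose medians of all genes were -0.16 and -0.20, and 51.8% with the filter on all 3 arrays. Differences of the dimmest members (Lox, Tnc, Igfbp5) are limited by signal over background. No paired analysis was possible because the p53+/− group has 1 sample with no number in the labels.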
